A study of Mus musculus with 6 samples.

Results

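The mouse Hist1 cluster is the main array of replication-dependent histone genes, on chromosome 13. It was described here by the open chromatin found in the window from 21790000 to 23870000 of chromosome 13 (build mm9), 2.08 Mb long. The members are the regions obtained by merging, at 1 bp of overlap, the ATAC-seq peaks of 6 deposited lists that overlap this window. There were 141 such regions of 149724 over the genome, with 6164 on the rest of chromosome 13. The choice of members rests on position alone.

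ATAC-seq marks DNA that a transposase can reach, and was run on cultured pro-B cell lines, precursors of B lymphocytes from bone marrow of strain 129SV. All lines lack RAG2, part of the recombinase of antigen receptor genes, the WT line included. WT carries unaltered IgH alleles. CBE_1 and CBE_2 are separate lines labelled IGCR1-/-, with mutation of IGCR1, a CTCF-binding control region of the immunoglobulin heavy chain locus on another chromosome. The study asks what this mutation does to the structure of that locus, and the histone cluster was not itself altered, as far as the labels say. Each line gave 2 libraries of 200000 cells and 11 PCR cycles. Nothing says that the duplicates are separate cultures, so their spread may be technical, and with 1 WT line, genotype and line cannot be told apart. The lists held 106056 to 112241 peaks in WT, 72318 to 80242 in CBE_1 and 94665 to 97522 in CBE_2, and the read depth behind them is unknown. The pro-B identity of the lines was not tested, since no annotation of mm9 was used.

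Histones H2A, H2B, H3 and H4 form the core around which DNA is wrapped, and H1 binds the linker between cores. Dividing cells make them in bulk during DNA replication, from many near-identical gene copies without introns whose promoters are short and rich in shared elements. Copies of this kind make short reads hard to place. How the authors treated reads with several matches is not given in the sources used here.

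The gene order of the cluster was taken from RefSeq (assembly GRCm38.p6). Its coordinates belong to another build than the lists, so no region was assigned to a gene. In that order the cluster held 56 histone genes, 2 of them pseudogenes, with 6 of class H1, 15 of H2A, 15 of H2B, 9 of H3 and 11 of H4. They stood in 4 runs. The run nearest the centromere had 19 genes, from H2bc13 to the gene listed as H4bc24, whose synonym in the table is Hist1h2br and which was counted as H2B, and was followed by 39 other genes, 31 of them for tRNAs. Next came 5 histone genes, from H2ac12 to H2bc11. Between these and the next run lay 147 genes, of which 75 were Vmn1r genes and pseudogenes, which encode vomeronasal pheromone receptors of the nose, and 46 were tRNA genes. The largest run had 30 histone genes, from H4c8 to H1f1, and the testis genes H2bc1 and H2ac1 formed the last. Among 11 pairs of neighbouring H2A and H2B genes with promoter entries, 10 were divergent, so that a single stretch of DNA lies upstream of both genes.

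Promoter sequences show what the open regions of such a cluster may contain. RefSeq promoters (GRCm38.p6, 250 bases before to 50 after the start) were found for 51 of the 56 genes, as 52 entries. For each class the 100 bases before the start are printed for the first gene in order with TATAAA there (for H2B, the first that also has the octamer). Capitals mark the letters of 3 elements on either strand. The TATA box was searched as TATAAA. The CCAAT box was searched by its name, and reads attgg on the other strand. The octamer, known from H2B promoters, was searched as ATTTGCAT. The marked letters do not overlap in these stretches.

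H1f5: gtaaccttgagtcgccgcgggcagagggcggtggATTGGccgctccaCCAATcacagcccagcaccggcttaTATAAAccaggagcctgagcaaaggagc

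H2ac22: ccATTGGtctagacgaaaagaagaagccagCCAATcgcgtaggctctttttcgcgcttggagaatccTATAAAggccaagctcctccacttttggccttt

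H2bc8: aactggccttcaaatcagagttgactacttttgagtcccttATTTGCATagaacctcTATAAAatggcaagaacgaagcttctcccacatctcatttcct

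H3c10: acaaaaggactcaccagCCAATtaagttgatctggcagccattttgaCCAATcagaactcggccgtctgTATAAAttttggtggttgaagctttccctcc

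H4c12: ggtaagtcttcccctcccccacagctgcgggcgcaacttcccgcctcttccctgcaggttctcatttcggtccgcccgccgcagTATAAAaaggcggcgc

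The TATAAA of H1f5, the gene of a linker histone, begins 28 bases before the start, and that of H2bc8 43 bases before it, a few bases after the octamer. In the whole 300-base entries, on both strands, TATAAA occurred in 31 of 52 histone promoters (59.6%), against 13.6% of all 32851 promoters in the table. CCAAT occurred in all promoters of H1, H2A, H2B and H3 genes and in 3 of 11 of H4 genes (27.3%), against 37.4% of all promoters. The octamer occurred in 6 of 15 H2B and 5 of 13 H2A promoters and in none of the other classes, against 1.74% of all promoters. Since most H2A and H2B genes share an upstream stretch, their promoters are not independent. These matches are letters, not bound sites.

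Open chromatin in the window lay in 2 dense blocks with an almost empty stretch between them. The centromeric block ran from 21801725 to 22144261 (343 kb) and held 59 regions, and the telomeric block ran from 23407423 to 23862201 (455 kb) and held 81. They were defined from the values, as regions separated by at least 200 kb without a peak in any list. Within the blocks there were 17.2 and 17.8 regions per 100 kb. The remaining region, at 22923172 to 22923555, stood alone between them and was found only in the WT lists, with deposited folds over background of 3.57 and 3.85. Without it, the longest stretch with no peak was 1316 to 1317 kb in each of the 4 mutated lists, and with it 779 kb in both WT lists. Stretches longer than these occurred elsewhere on chromosome 13, at 3 to 8 places per list.

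**Figure D1:**
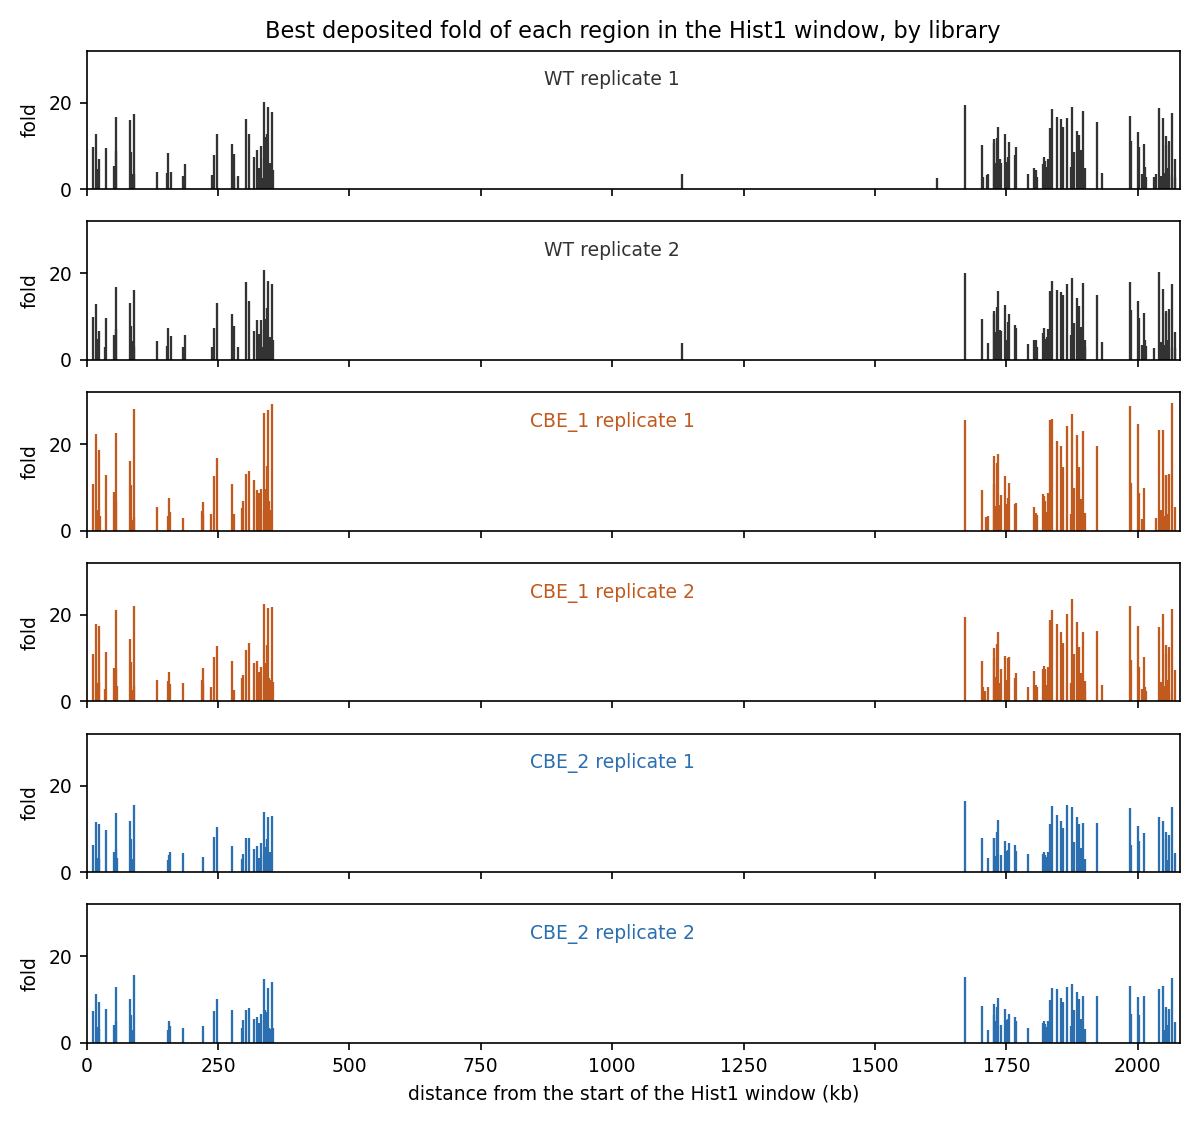
Deposited fold over background (vertical axis, linear) of the best peak of each region against distance from the window start in kb, with a panel for each of the 6 libraries. Peaks crowd into a block on either side of an almost empty middle, where only the WT lists hold a region, with folds of 3.57 and 3.85.

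In 100 kb bins the same layout appeared in every library. Of 21 bins, 11 had no peak in any list. Bin 19, from 23590001 to 23690000, was the fullest, with 35 and 34 peaks in WT, with 33 and 39 in CBE_1 and with 31 and 32 in CBE_2. No bin outside the window on chromosome 13 exceeded 27 peaks in either CBE_1 list or in either CBE_2 list, whereas the fullest had 40 and 43 in WT. Bin 1, from 21790001 to 21890000, had 17 to 22 peaks, and bin 4, from 22090001 to 22190000, had 17 to 20. Bin 2 between them had 4 to 6. The number of bins with at least 10 peaks was 5 in each WT and CBE_2 list and 6 in each CBE_1 list, and the share of such bins on the rest of the chromosome was 5.66% to 13.4%. Thus the window combined very full bins with empty ones: 52.4% of its bins were empty in WT and 57.1% in the mutated lists, against 27.1% to 44.2% outside it.

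**Figure D2:**
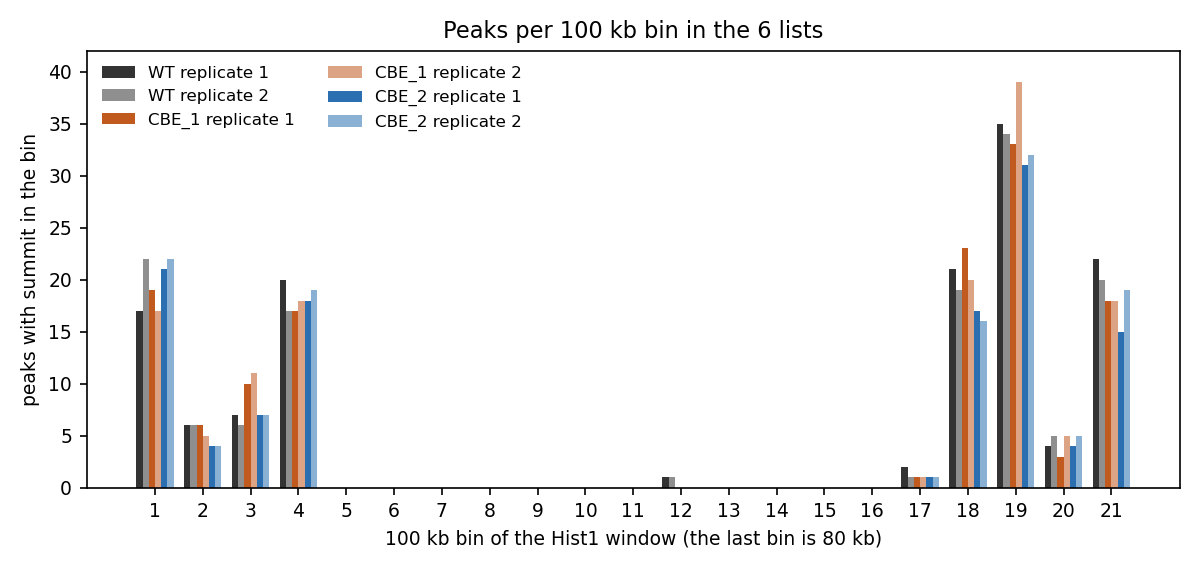
Number of peaks with their summit in each 100 kb bin of the window (bars from 0, side by side for the 6 libraries, WT dark grey, CBE_1 orange, CBE_2 blue, paler for replicate 2). Bins 1, 4, 18, 19 and 21 carry most peaks in all 6 lists, and bin 12 has a peak in the WT lists alone.

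The number of peaks in the window hardly varied between libraries although the lists differed in length. WT had 135 and 131 peaks there, CBE_1 130 and 134, and CBE_2 118 and 125. On the rest of chromosome 13 the counts were 4621 and 4383 in WT, with 2665 and 3117 in CBE_1 and with 3693 and 3799 in CBE_2. Peaks were therefore denser in the window than outside it in every library, by 1.61 and 1.65 times in WT, 2.69 and 2.37 times in CBE_1, and 1.76 and 1.82 times in CBE_2. As a share of the whole list, the window held 0.120% (95% Wilson interval 0.102 to 0.142) and 0.124% (0.104 to 0.147) of the peaks in WT. In CBE_1 it held 0.180% (0.151 to 0.213) and 0.167% (0.141 to 0.198), and in CBE_2 0.125% (0.104 to 0.149) and 0.128% (0.108 to 0.153). Both CBE_1 libraries lay above the other 4, and the CBE_2 values lay above WT by less than the width of any interval. These intervals cover counting error only. The mutated libraries together exceeded WT by 0.0280 percentage points (exact permutation test, two-sided, n = 2 and 4, p = 0.133, adjusted p = 0.267 over 4 tests). With 15 possible assignments no p under 0.0667 can be reached, so none of these tests could pass 0.05. The tests also treat the 6 libraries as independent, though these are duplicates of 3 lines. Their p-values therefore do not measure the spread between lines. The difference was 0.0180 percentage points without CBE_1 replicate 1 and 0.0118 with lists of equal length, where CBE_2 overlapped WT.

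Covered bases told the lines apart further. Peaks covered 133 and 126 kb of the window in WT, with 114 and 126 kb in CBE_1 and with 87.8 and 88.0 kb in CBE_2. That is 0.166% and 0.167% of all covered bases in WT, with 0.217% and 0.211% in CBE_1 and with 0.127% and 0.126% in CBE_2, so that the 3 lines did not overlap and WT stood between the mutated lines. As 1 group the mutated libraries differed from WT by 0.00378 percentage points (exact permutation test, n = 2 and 4, p = 0.8, adjusted p = 0.8), with CBE_1 above and CBE_2 below WT. This small difference was -0.0117 percentage points without CBE_1 replicate 1 and -0.00993 without CBE_1 replicate 2.

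Peaks in the window were wide over the whole lists. Their median width was 662 and 703 bp in WT, with 642 and 703.5 bp in CBE_1 and with 563 and 579 bp in CBE_2, against 429 to 460 bp on the rest of the chromosome. The ratio of the 2 medians was 1.54 and 1.62 in WT, with 1.41 and 1.53 in CBE_1 and with 1.27 and 1.33 in CBE_2, lowest in CBE_2. It was lower by 0.200 in the mutated libraries than in WT (exact permutation test, n = 2 and 4, p = 0.133, adjusted p = 0.267). When the better 50% of each list was kept, the ratio was 0.942 and 0.862 in CBE_2, so that peaks in the window were there narrower than outside it, and 1.32 to 1.54 in the other libraries. Over the regions found in all 6 lists, peaks covered a median of 1287 and 1244 bp per region in WT, with 1172.5 and 1232.5 bp in CBE_1 and with 948.5 and 926 bp in CBE_2. On the rest of the chromosome the same medians were 815 and 792 bp, 622 and 697 bp, and 742 and 730 bp. In CBE_2 these regions were also split into more peaks, 1.397 and 1.449 per region, against 1.12 to 1.31 in the other libraries and 1.11 to 1.14 outside the window. Among the regions in all 6 lists 21 of 78 (26.9%) were wider than 2 kb, against 18.0% outside.

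The order of the lines by spacing depended on which peaks were kept. The median distance between neighbouring summits was 2.42 and 2.51 kb in WT, with 2.53 and 2.48 kb in CBE_1 and with 2.66 and 2.34 kb in CBE_2, where the CBE_2 libraries were the lowest and the highest of the 6. On the rest of the chromosome it was 6.01 to 8.69 kb. The mutated libraries differed from WT by 0.0400 kb (exact permutation test, n = 2 and 4, p = 0.733, adjusted p = 0.8), and this difference was -0.00200 kb without WT replicate 1 and -0.0130 kb without CBE_2 replicate 1. With the better 50% of each list by −log10 p, spacing was 3.71 and 3.20 kb in WT and 4.04 to 4.30 kb in the 4 mutated libraries, which did not overlap. That difference was 0.687 kb (exact permutation test, n = 2 and 4, p = 0.0667, the smallest possible). With lists of equal length the difference was -0.431 kb, in the other direction, and the groups overlapped. Gaps under 500 bp made up 36.2% of those between neighbouring regions in the centromeric block and 38.8% in the telomeric block.

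Presence was more uniform in the window than on the rest of the chromosome. Of the 141 regions 78 (55.3%) were found in all 6 lists, against 30.1% on the rest of chromosome 13 and 31.9% over the genome. Regions found in a single library numbered 14 (9.93%, against 28.8%), 18 (12.8%, against 20.0%) had other combinations of libraries, and the rest followed a line-specific pattern described further on. In flanks as long as the window, the share in all 6 lists was 45.7% on the centromeric side and 46.9% on the telomeric side. With lists of equal length this share was 59.0% in the window and 40.2% on the rest of the chromosome. With the better 50% of each list it was 61% and 41.4%, so the contrast was smaller under both settings. Within the window, the centromeric block held 31 of the shared regions and the telomeric block 47. Their deposited folds ranged from 2.56 to 29.6, with a median of 9.67.

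The widest region of the window, from 23851815 to 23857303 (5489 bp) lay in the telomeric block and was found in all 6 lists. Its best fold was 17.5 and 17.6 in WT, with 29.6 and 21.4 in CBE_1 and with 14.96 and 14.92 in CBE_2. Folds of different lists are not on 1 scale, so each was turned into a percentile among the 47767 regions of the genome present in all 6 lists. On this scale the region stood at 84.5 and 84.1 in WT, with 95.3 and 93.2 in CBE_1 and with 77.2 and 79.8 in CBE_2. CBE_1 lay above WT and CBE_2 below it, with no overlap of the lines. The region with the highest mean percentile of the window was a narrow one of 663 bp, at 22127251 to 22127913 in the centromeric block. It stood at 91.9 and 92.9 in WT, with 92.6 and 95.3 in CBE_1 and with 73.6 and 79.0 in CBE_2. There WT and CBE_1 overlapped and CBE_2 was lower than both. The second, at 23460211 to 23461685, is the first of the telomeric block that is shared by all lists, after the empty stretch. Its percentiles were 90.1 and 91.1 in WT, with 90.6 and 89.6 in CBE_1 and with 81.8 and 80.9 in CBE_2. Again only CBE_2 stood apart.

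Other wide regions were found at 23662722 to 23666504 (3783 bp), 23835979 to 23839624 (3646 bp), 23625263 to 23628642 (3380 bp) and 23711735 to 23715025 (3291 bp), all in the telomeric block. All of them ranked in the order CBE_1, WT, CBE_2 without overlap. The first of these stood at 88.9 and 88.0 in WT, with 92.4 and 96.7 in CBE_1 and with 77.2 and 74.7 in CBE_2. The remaining strong regions lay at 21878923 to 21879630, 22141513 to 22143623 and 23773995 to 23776274. The last of these stood at 82.8 and 85.8 in WT, with 94.5 and 94.3 in CBE_1 and with 76.8 and 73.1 in CBE_2.

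This order held for most shared regions of the cluster. Both CBE_2 libraries had a lower percentile than both WT libraries in 69 of 78 regions (88.5%, with 46.3% elsewhere on chromosome 13), and a higher one in 3 (3.85%, against 25.7%). Both CBE_1 libraries were higher than both WT libraries in 54 regions (69.2%, against 34.8%) and lower in 4 (5.13%, against 35.7%). In 47 regions (60.3%) both held at once, against 10.7% outside the window, and the opposite arrangement occurred in none. CBE_2 was below CBE_1 in 75 regions (96.2%, against 41.3%) and above it in 1 (1.28%, against 28.6%). The median difference from WT was 6.91 points in CBE_1 and -12.5 points in CBE_2, with 0.137 and -2.55 points on the rest of the chromosome. No test of these counts was made, since regions are not replicates.

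**Figure D3:**
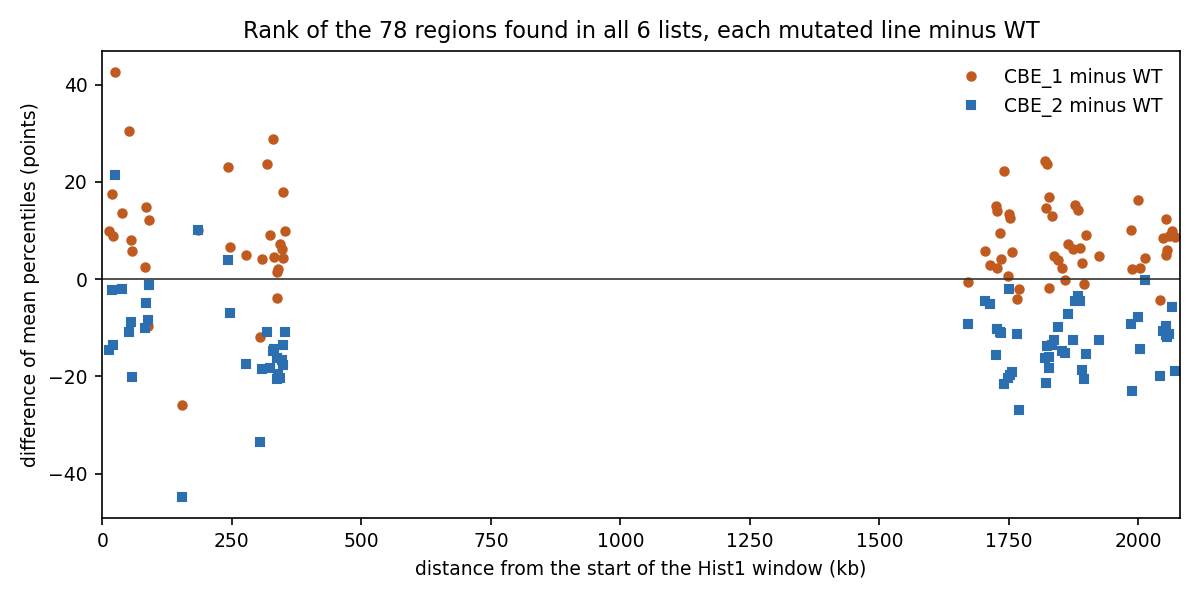
Difference in percentile (points, mean of the 2 libraries of a mutated line minus mean of the 2 WT libraries) of the 78 regions found in all 6 lists, against distance from the window start in kb. CBE_1 (circles) is above 0 in 67 regions and CBE_2 (squares) below 0 in 75, while the same signs were found in 50.6% and 61.8% of regions on the rest of the chromosome.

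Both blocks showed it. In the centromeric block the median difference from WT was 8.04 points in CBE_1 and -13.6 in CBE_2, and in the telomeric block 6.13 and -12.4. CBE_2 was below WT in 25 of 31 regions of the former and 44 of 47 of the latter. In WT the shared regions of the window were also stronger than those elsewhere on the chromosome, with median percentiles of 59.8 and 60.2 against 49.7 and 50.5. In CBE_1 the medians were 68.1 and 66.3 against 49.6 and 50.8. In CBE_2 they were 47.9 and 48.8 against 47.9 and 48.5, so the shared regions of the window were not stronger in that line. Over all peaks of a list, the median fold in CBE_2 was 5.76 and 5.69 in the window, against 4.29 and 4.08 outside. It was 6.92 and 7.14 against 4.11 and 4.17 in WT, and 7.54 and 7.14 against 4.67 and 4.27 in CBE_1. Among regions at or above the 50th WT percentile, CBE_2 was below WT in 46 of 49 in the window and in 53.8% of 932 outside it. Among weaker regions it was below in 23 of 29 in the window and in 38.7% of 923 outside.

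The CBE_2 difference was not limited to the histone cluster. In a flank of the same length on the centromeric side, 25 of 32 shared regions (78.1%) were below WT in CBE_2, with a median difference of -10.6 points, and on the telomeric side 33 of 46 (71.7%), with -7.64 points. In CBE_1 the flanks differed from WT by 6.68 and 1.72 points. CBE_2 was below CBE_1 in 71.9% and 71.7% of the shared regions of the flanks. Along the chromosome in 10 Mb segments, the median difference of CBE_2 was -9.40 from 10 to 20 Mb and -7.90 from 30 to 40 Mb. From 20 to 30 Mb it was -10.9, or -8.17 over the 111 shared regions there that lie outside the window. In 28.8% of these 111 regions CBE_1 was above and CBE_2 below WT, and from 10 to 20 Mb in 19.9%. From 60 Mb onwards the median difference of CBE_2 lay between -0.476 and 2.08 points. What sets this regional difference was not tested.

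**Figure D4:**
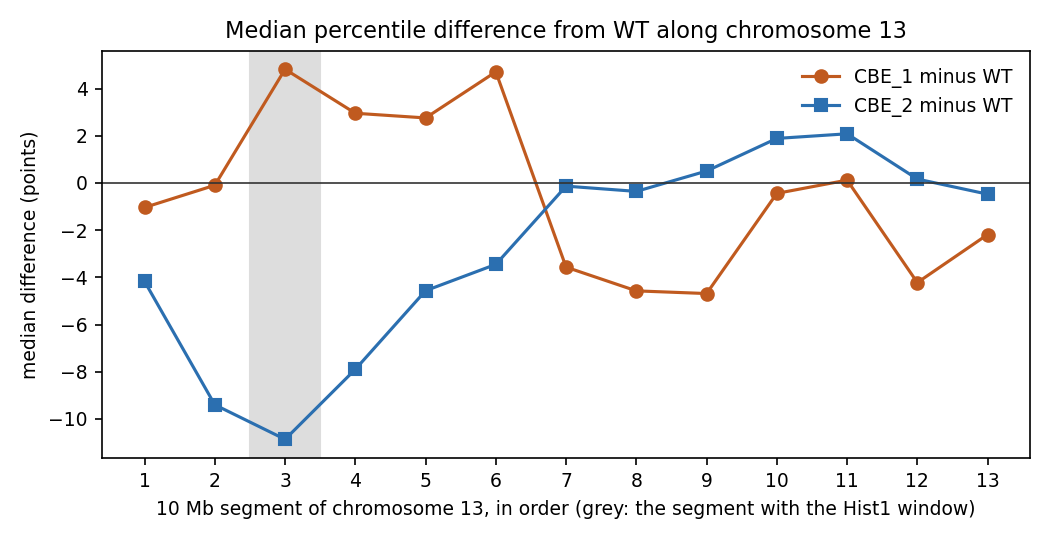
Median difference in percentile (points) from WT of the regions found in all 6 lists, in successive 10 Mb segments of chromosome 13, for CBE_1 (circles) and CBE_2 (squares). CBE_2 is lowest in the grey segment with the histone cluster, at -10.9 points, and near 0 from the seventh segment on.

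The height of CBE_1 depended on what was ranked. A region's fold was also ranked among all peaks of its own list. These lists are shorter in both mutated lines than in WT, most so in CBE_1. Under this ranking 19 of 78 regions (24.4%) were above WT in CBE_1, against 11.6% outside the window. CBE_2 was then below WT in 72 regions (92.3%, against 59.6%). Few regions differed from WT the same way in both lines: the 4 mutated libraries were all above both WT libraries in 2 regions (2.56%, against 14.7%) and all below in 4 (5.13%, against 23.2%). Ranked among all peaks, the latter became 31 regions (39.7%, against 47.3%). With the first ranking, it was 9 without CBE_1 replicate 1 (11.25%, against 26.4%). It was 7 without WT replicate 1 (8.86%, against 28.9%) and 7 without WT replicate 2 (8.97%, against 29.3%). The share outside the window thus rose too.

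Of these 6 regions 5 lay in the centromeric block. That furthest above WT was at 21813492 to 21814637, at percentiles 41.2 and 39.0 in WT, with 80.6 and 84.8 in CBE_1 and with 64.5 and 58.5 in CBE_2. Its best folds were 7.03 and 6.70 in WT, with 18.5 and 17.5 in CBE_1 and with 11.2 and 9.34 in CBE_2. It lies 146 bp from a region found only in the mutated lines. The other was at 22031934 to 22033289, where WT stood at 47.2 and 43.8, CBE_1 at 70.8 and 66.1, and CBE_2 at 50.9 and 47.7. There the lower CBE_2 library lay just above the higher WT library. That furthest below WT was at 21944011 to 21945094, where WT stood at 49.7 and 43.8, CBE_1 at 9.30 and 32.3, and CBE_2 at 1.31 and 2.77. The region from 22092891 to 22094595 ranked at 80.6 and 85.8 in WT, with 71.7 and 70.9 in CBE_1 and with 50.2 and 49.2 in CBE_2. The remaining lower regions were at 21877794 to 21878751, a weak region, and at 23830184 to 23832400, the only one of the telomeric block.

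Regions found in both WT libraries and in no mutated library numbered 10 (7.09%, against 10.6% on the rest of the chromosome), with folds of 2.81 to 5.84. The strongest, at 21976235 to 21976795, reached folds of 5.84 and 5.71. At 21951028 to 21951605 they were 4.00 and 5.49. Of the 10, 5 lay in the centromeric block and 4 in the telomeric block. Others of higher rank lay at 23684096 to 23684451, 21943147 to 21943513 and 22028930 to 22029236. The count was 20 without WT replicate 2 (13.99%, against 22.04% outside), 16 without CBE_1 replicate 2 (11.2%, against 12.1%) and 3 with lists of equal length (2.46%, against 8.75%), so the share outside the window moved with it.

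The reverse pattern, presence in each of the 4 mutated libraries but in no WT library, was found in 6 regions (4.26%, against 1.46%). In the centromeric and telomeric flanks its share was 2.86% and 2.04%. All 6 regions of the window lay in the centromeric block, within 276 kb, and none in the telomeric block. They were at 21812957 to 21813345, 21946923 to 21947444, 21947517 to 21948119, 22010585 to 22011513, 22085786 to 22086423 and 22086976 to 22088686, so that 4 of them formed 2 neighbouring pairs. The widest, of 1711 bp at 22086976, had folds of 6.94 and 6.15 in CBE_1, with 4.29 and 5.26 in CBE_2. The region at 22010585 had folds of 6.64 and 7.61 in CBE_1, with 3.56 and 3.87 in CBE_2. On either side of the latter stood regions found in CBE_1 alone, at 22008887 to 22009275, with folds of 4.52 and 4.90, and at 22011915 to 22012214. Another CBE_1-only region lay at 22027296 to 22027531, which made 3 in all (2.13%, against 0.535%, with 1.43% and 1.02% in the flanks). This excess over the rest of the chromosome was absent without CBE_1 replicate 1, with 4 regions (2.84%, against 3.04%), and without CBE_1 replicate 2 there were 7 (4.90%, against 1.81%). There was no mutated-only region when the better 50% of each list was kept (against 1.94% outside), and CBE_1-only regions were then 3 (3%, against 0.411%). With lists of equal length the excess was smaller for both patterns. There were then 6 mutated-only regions (4.92%, against 3.27%) and 4 CBE_1-only regions (3.28%, against 1.65%).

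**Figure D5:**
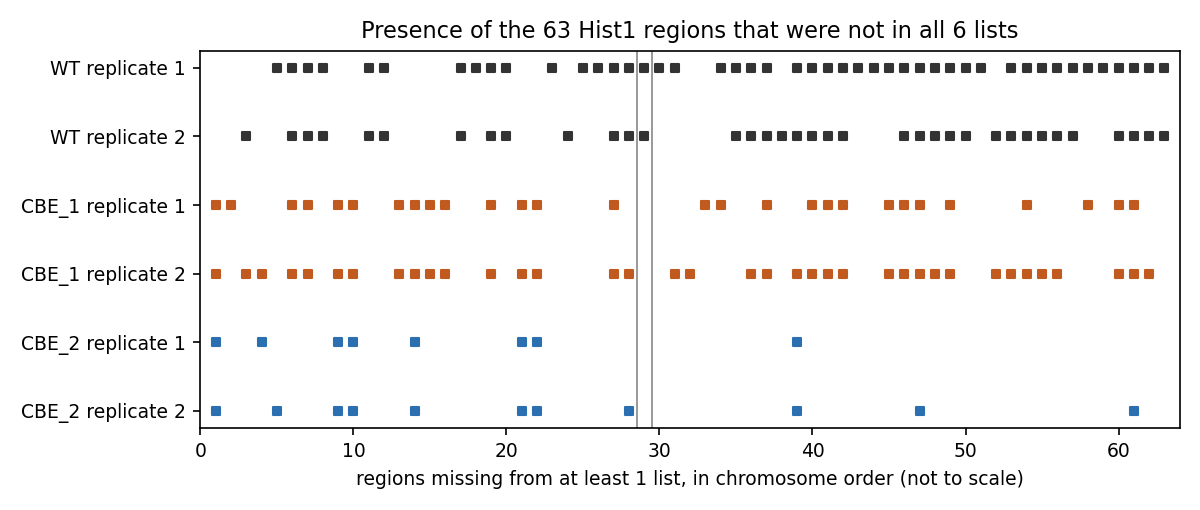
Presence (filled squares) of the 63 regions that were missing from at least 1 list, in chromosome order, by library; the grey lines set off the lone WT region between the blocks. CBE_2 replicates hold 8 and 11 of the 63, and in the telomeric block 1 and 3 of 34.

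Regions missing from CBE_2 alone made up a larger share of the window than of the rest of the chromosome. Of the 141 regions 12 were found in all WT and CBE_1 libraries and in neither CBE_2 library (8.51%; 0.909% elsewhere on the chromosome, 0.653% over the genome). In the centromeric and telomeric flanks the share was 4.29% and 2.04%. Of the 12 regions, the telomeric block held 8 and the centromeric block 4. The strongest in WT was at 22070995 to 22071466, with folds of 8.22 and 7.91 in WT and 3.92 and 2.71 in CBE_1. The widest, at 23527233 to 23528575 (1343 bp), had folds of 6.92 and 7.03 in WT and 6.03 and 4.27 in CBE_1. At 23592585 to 23593109 the folds were 4.98 and 4.72 in WT and 5.43 and 7.09 in CBE_1, and a second such region followed at 23595586 to 23596144. Further examples lay at 21923870 to 21924200, 23624102 to 23625204 and 23683010 to 23683800. The median fold over these 12 regions was 3.98, below the 9.67 of the shared regions, and there were 4 such regions with the better 50% of each list (4%, against 0.859% outside). With lists of equal length there were 11 (9.02%, against 1.38%), and without CBE_1 replicate 1 there were 18 (12.8%, against 2.19%).

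No region of the window was found only in CBE_2, against 3.26% outside it, and none was missing only from CBE_1, against 4.27% outside it. In the centromeric and telomeric flanks 5.71% and 3.06% were found only in CBE_2, and 0% and 2.04% were missing only from CBE_1. Of the 63 regions that were not in all lists, WT held 46 and 36, CBE_1 28 and 37, and CBE_2 8 and 11. As shares, WT held 73.0% and 57.1%, CBE_1 44.4% and 58.7%, and CBE_2 12.7% and 17.5%. Of the 4309 such regions on the rest of chromosome 13, WT held 58.8% and 51.9%, CBE_1 12.3% and 23.1%, and CBE_2 36.6% and 38.5%. CBE_2 thus held the smallest share in the window, and CBE_1 outside it.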

How the data were processed

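Peak lists of 6 ATAC-seq libraries from 3 lines were used, 1 list per library. Per the submitters' processing notes, reads were handled with Trimmomatic, Bowtie2, SAMtools and Picard (no versions) on build mm9. Neither the peak caller and its settings nor any transposase shift is given in the sources used here. Each deposited list holds a score, a fold over background (a ratio), −log10 of a p-value and a q-value, and a summit per peak, all the authors' values, used within 1 list at a time. The depth is unknown.

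Peaks were merged with pandas 2.3.3 (Python 3.11.15) at 1 bp of overlap. A region's percentile is that of its best fold among regions present in all 6 lists. Single values were compared by two-sided exact permutation tests with Benjamini-Hochberg adjustment over 4 tests. Wilson intervals are at 95%. The merging and calls recovered the known answers on simulated lists. Alternatives were other overlaps, the better 50% of each list, lists of equal length (the best 72318 peaks of each), other window borders and bins, other ranks and leaving out each library. Comparisons by line, the flanks and the strata were chosen after seeing the data. The members and lists were chosen with earlier results of these data known. Named regions are up to 6 of each line-specific pattern by rank, the 8 highest and 5 widest, and up to 5 regions above and 5 below WT in both lines; the region at 22070995 was named after its values were seen. Replicates are numbered in accession order. Coordinates are 1-based.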

Additional observations from a re-analysis of the deposited data

Results flagged for a closer look

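The share of covered bases that fell in the window differed between the mutated lines: CBE_1 lay above both WT libraries and CBE_2 below both, with a difference of 0.0876 percentage points between the line means. Among the named regions the same arrangement of percentiles, CBE_1 above and CBE_2 below WT, was found at 7. The mean difference between CBE_1 and CBE_2 was 18.59 points at 23662722 to 23666504, 15.72 at 23851815 to 23857303, 19.41 at 23773995 to 23776274, 17.15 at 23625263 to 23628642, 20.70 at 22141513 to 22143623, 19.21 at 23835979 to 23839624 and 17.26 at 23711735 to 23715025. These differences between the lines were not tested.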

How the results depend on the processing

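Of 151 values recomputed under alternatives, 7 differences between groups changed sign, and 13 counts or shares moved, counts by over 1.5 times and shares beyond the exact 95% interval of the reported share. The other 131 did neither, but differences between groups were judged there by sign alone, since no p could pass the threshold. Among these, the spacing difference was 0.687 kb and the width ratio difference -0.328 with the better 50% of each list, and the difference in share of peaks was 0.0118 percentage points with lists of equal length. The mutated minus WT difference in share of covered bases was -0.00612 percentage points with the better 50% of each list, -0.00919 with lists of equal length, and -0.0117 to 0.0187 when a library was left out. The difference in spacing was -0.431 kb with lists of equal length and -0.0130 to 0.0943 kb when a library was left out. With the better 50% of each list there were 0 mutated-only (against 1.94% outside) and 4 CBE_2-absent regions (4%, against 0.859%). With lists of equal length there were 3 WT-only regions (2.46%, against 8.75%). Leaving out a library gave 10 to 20 WT-only regions (7.04% to 13.99%, against 11.1% to 22.0% outside). CBE_1-only regions were 3 to 7 (2.10% to 4.90%, against 0.607% to 3.04%) and CBE_1-absent regions 0 to 1 (0% to 0.699%, against 5.14% to 8.30%). Of the shared regions 69.1% to 81.3% were then above WT in CBE_1 (34.7% to 45.2% outside). This rule compares fewer libraries only when a WT or CBE_1 library is left out. Ranked over all peaks of the list, 24.4% were above WT in CBE_1 (11.6% outside) and 39.7% were below WT in all mutated libraries (47.3% outside). In this ranking 88.5% were lower in CBE_2 than in CBE_1 (22.3% outside). The cause of these changes was not tested. Ranking by −log10 p gave the same counts as ranking by fold, on the rest of the chromosome too, so it was not a separate check. In 50 kb bins 23 of 42 were empty in all lists. No paired analysis was possible because the labels give the libraries no replicate numbers. Read depth, the peak caller and the treatment of reads with several matches are not known here, and presence depends on each list's own threshold.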
